A study of Mus musculus with 6 samples.

Results

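The Hippo pathway genes described here are Yap1, Wwtr1, Tead1, Tead2, Tead3, Tead4, Lats1, Lats2, Ankrd1 and Amotl2, taken by gene symbol. All 10 were found among the 54309 genes of the deposited tables, each under 1 gene identifier, and all 10 were among the 19129 genes kept by the filter on low counts. RNA was measured by poly-A selected RNA-seq in distal sciatic nerve (left side), which was collected 24 h after surgery from C57BL/6 mice aged 6 to 8 weeks. The groups were 3 libraries from females and 3 from males, each made from the pooled nerves of 2 animals, with the same labelled surgery in both sexes. The labels disagree on that surgery: a treatment field gives axotomy, the cutting of the nerve, for all 6 libraries, and the written procedure describes exposing the nerve without cutting it. No library here comes from an unoperated mouse, so each difference below is between the sexes after 1 operation and none is a response to injury.

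The Hippo pathway is a kinase cascade that holds back growth. The kinases MST1 and MST2 (Stk4 and Stk3) activate LATS1 and LATS2, which phosphorylate the coactivators YAP (Yap1) and TAZ (Wwtr1) and keep them out of the nucleus. When the cascade is quiet, YAP and TAZ enter the nucleus and bind the TEAD transcription factors, which carry them to DNA. Ankrd1, Amotl2 and Lats2 are among the genes they switch on, and Amotl2 and Lats2 in turn restrain YAP and TAZ. In peripheral nerve, YAP and TAZ are known for their part in the sorting and myelination of axons by Schwann cells. RNA levels do not show whether YAP and TAZ proteins are phosphorylated or nuclear.

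Sequences of 2 kinds are shown: the coding exon that separates the 2 main Yap1 transcripts, and promoters that hold the core letters of the TEAD motif. A link between the promoter letters and the RNA levels was not tested. The exon is shown because both Yap1 transcripts were present at near-equal levels. Yap1-201 and Yap1-202 differ within their coding sequence by 48 bases, which add 16 residues to Yap1-201 in the transcription activation region of the protein. These bases lie at coding positions 940 to 987 of Yap1-201, on the minus strand of chr9:7950492-7950539 (GRCm38, GENCODE M21, matched by transcript name and equal length). The exon is in capitals and is flanked by 12 bases on each side.
Yap1-201: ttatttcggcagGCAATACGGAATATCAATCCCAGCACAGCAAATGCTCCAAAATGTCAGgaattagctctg

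Promoters were read from RefSeq (GRCm38.p6), from 250 bases before the annotated start to 50 after, and searched for GGAATG on both strands (CATTCC on the other strand). RefSeq entries matched 8 of the 10 genes; those without an entry were Tead1 and Tead4. The motif was found for 6 of the 8 (Yap1, Wwtr1, Tead3, Lats2, Ankrd1 and Amotl2) and not for Lats1 and Tead2. Among all 32851 promoters of the same length 14.7% held it, as did 8 of the 12 promoters of these genes. The Wwtr1 promoters among the 8, which begin at 57575827 and 57575861, overlap and hold the same motif site. The motif was also found for 4 of 12 matched genes of a list of other YAP and TAZ targets. Ccn1 was among these 4 and Ccn2 was not. In a list of pathway regulators 6 of 18 matched genes held the motif. In a list of Schwann cell genes tied to YAP, TAZ and TEAD1 it was 2 of 3 (2 of 11 promoters). The share was 16.6% over all genes with an entry. A match of these letters is a description of the window and not evidence of binding. Shown are the promoters of both coactivators, of the 2 targets Ankrd1 and Amotl2, and of Ccn1, with the motif letters in capitals. They lie at chr9:8004547-8004846 (Yap1, minus strand), chr3:57575827-57576126 (Wwtr1, minus), chr19:36119795-36120094 (Ankrd1, minus), chr9:102717554-102717853 (Amotl2, plus) and chr3:145649936-145650235 (Ccn1, minus).
Yap1: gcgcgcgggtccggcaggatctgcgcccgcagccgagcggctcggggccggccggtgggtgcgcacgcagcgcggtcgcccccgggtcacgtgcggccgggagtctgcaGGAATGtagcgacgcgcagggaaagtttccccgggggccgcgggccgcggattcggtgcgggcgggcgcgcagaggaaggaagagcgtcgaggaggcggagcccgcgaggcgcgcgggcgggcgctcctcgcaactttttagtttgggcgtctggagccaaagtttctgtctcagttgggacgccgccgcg
Wwtr1: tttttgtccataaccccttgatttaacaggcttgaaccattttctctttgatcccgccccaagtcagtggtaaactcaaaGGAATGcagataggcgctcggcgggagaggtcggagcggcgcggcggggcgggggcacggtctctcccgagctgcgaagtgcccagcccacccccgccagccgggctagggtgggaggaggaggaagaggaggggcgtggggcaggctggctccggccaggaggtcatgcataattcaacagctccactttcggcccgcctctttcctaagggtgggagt
Ankrd1: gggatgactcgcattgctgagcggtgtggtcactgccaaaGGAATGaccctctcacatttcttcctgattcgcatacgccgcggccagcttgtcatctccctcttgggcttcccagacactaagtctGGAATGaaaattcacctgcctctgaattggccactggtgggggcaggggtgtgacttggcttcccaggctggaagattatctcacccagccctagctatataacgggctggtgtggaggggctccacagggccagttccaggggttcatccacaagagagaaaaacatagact
Amotl2: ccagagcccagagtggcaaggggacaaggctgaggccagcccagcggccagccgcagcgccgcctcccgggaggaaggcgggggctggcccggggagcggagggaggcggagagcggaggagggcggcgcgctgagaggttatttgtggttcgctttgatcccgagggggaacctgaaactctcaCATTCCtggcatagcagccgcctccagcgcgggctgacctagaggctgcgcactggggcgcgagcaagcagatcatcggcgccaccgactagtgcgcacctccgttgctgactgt
Ccn1: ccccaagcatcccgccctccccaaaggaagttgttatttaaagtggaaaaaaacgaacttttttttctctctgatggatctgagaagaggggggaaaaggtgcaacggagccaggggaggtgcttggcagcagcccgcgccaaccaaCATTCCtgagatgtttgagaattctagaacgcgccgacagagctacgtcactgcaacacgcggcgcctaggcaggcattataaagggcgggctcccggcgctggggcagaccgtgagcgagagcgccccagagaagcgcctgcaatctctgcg
The motif began 210 and 123 bases before the start of Ankrd1, which was the 1 promoter of the 5 with 2 matches. It began 141 bases before the start of Yap1, 170 before that of Wwtr1, 65 before that of Amotl2 and 103 before that of Ccn1.

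The libraries held 55272138 to 77610593 estimated reads, and reads per library ran from 5553 to 17159 for Yap1, Wwtr1 and Tead1 and from 70 to 2132 for Ankrd1. The Schwann cell markers used to check the tissue (8 genes, Sox10 among them) had reads in every library. Female 2 and male 1 stood apart by skeletal muscle RNA: the summed level of 8 muscle markers was 1457 and 774 TMM-scaled CPM (reads of a gene per 1e6 reads) in them and 6.68 to 21.5 CPM in the other libraries. Log2 fold changes that moved by over 1.5 times without both are given with and without them.

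None of the 10 genes passed the test of female against male nerves across all genes, and 9 of the 10 had log2 fold changes within -0.31 to 0.10. In edgeR's quasi-likelihood test with Benjamini-Hochberg adjustment 0 of 10 passed an adjusted p of 0.05, where 0.11% of all tested genes passed, and 2 of 10 had an unadjusted p under 0.05, where 14.6% of all tested genes did. DESeq2 called 0 of 10 (4.55% of all tested genes) and limma-voom 0 of 10 (0.136%). Log2 fold changes, female minus male, were below 0 for 8 of the 10 with a median of -0.13, beside 46.4% of genes below 0 and a median of 0.02 over all tested genes. Every male library was above every female one for 4 of the 10 (Yap1, Wwtr1, Lats2 and Amotl2), as for 11.5% of all tested genes. The reverse order, all females above all males, was seen for 0 of the 10 and for 9.63% of tested genes. With female 2 and male 1 left out, the 10 genes had a median of -0.074. P-values set the difference of the sexes against the spread between these pooled libraries, estimated with help from all tested genes. The spread between single animals is not seen.

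**Figure D1:**
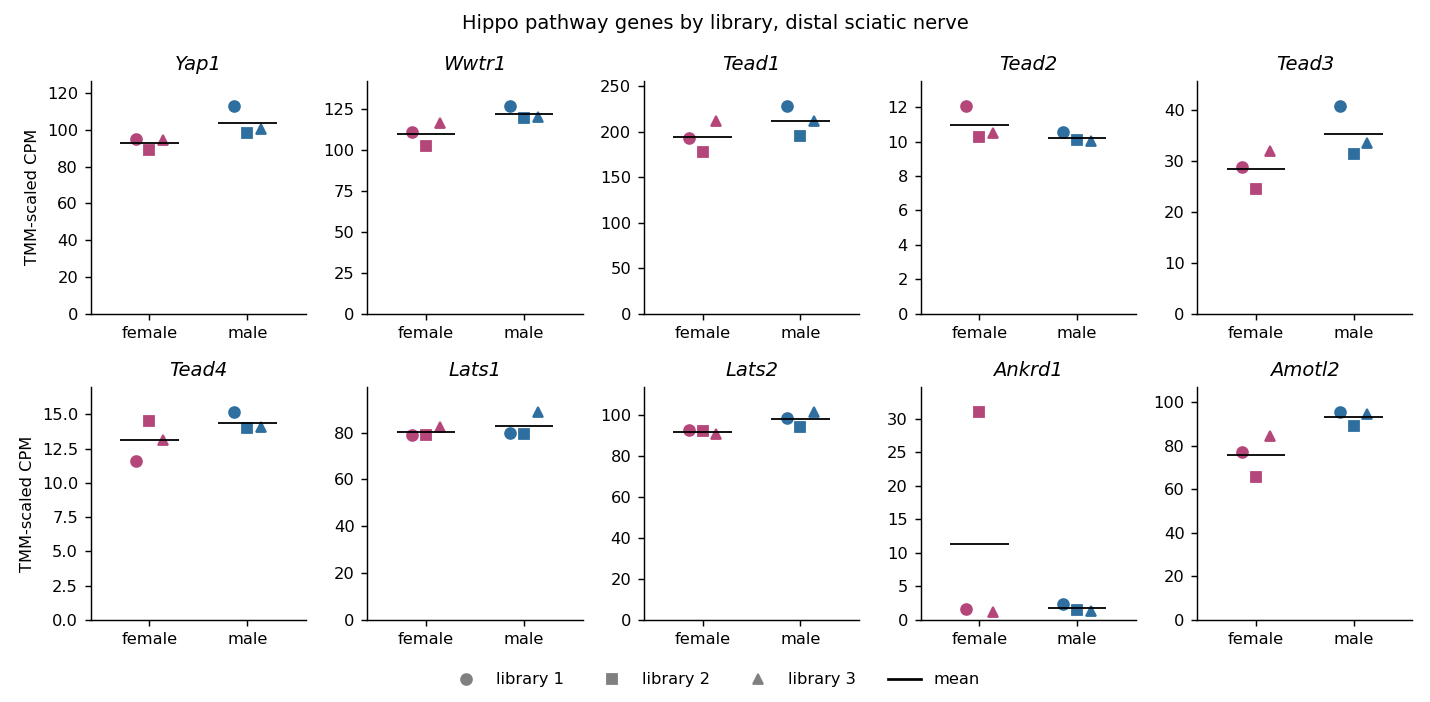
TMM-scaled CPM of each of the 10 genes in the 3 female and 3 male libraries; symbols give the library number and bars the group mean, and each axis starts at 0. The groups lie close together for every gene but Ankrd1, where female 2 stands at 31.0 CPM and the other libraries at 1.23 to 2.38 CPM.

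The kinase gene Lats1 was at 79.1, 79.0 and 82.6 CPM in female libraries 1 to 3 and 79.7, 79.4 and 88.8 CPM in male libraries 1 to 3. The groups overlapped, with a log2 fold change of -0.04 (SE 0.07, 95% interval -0.20 to 0.12). Lats2, a kinase that is itself a YAP and TAZ target, was at 92.9, 92.0 and 90.7 CPM in female libraries and 98.8, 94.2 and 101 CPM in male libraries. All 3 male libraries were above the female ones, by little: the log2 fold change was -0.10 (SE 0.06, edgeR adjusted p 0.530). Lats2 exceeded Lats1 per transcript length in each of the 6 libraries, at 29.2 ± 1.72 against 22.2 ± 2.09 TPM (SD, n = 6), and the ratio of their TPM levels was 1.29 ± 0.07 in females and 1.35 ± 0.10 in males (SD, n = 3). Almost all Lats1 RNA was assigned to 1 transcript, Lats1-202, at 99.7% or more of the gene's TPM in every library, and Lats2-201 took 90.3% to 93.2% of Lats2.

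Of the coactivators, Yap1 was at 94.9, 89.2 and 94.3 CPM in female libraries 1 to 3 and 113, 98.2 and 100.5 CPM in male libraries 1 to 3. The lowest male library lay above the highest female one, and male 1 was the highest of all. The log2 fold change was -0.16 (SE 0.08, 95% interval -0.34 to 0.01, edgeR adjusted p 0.375), with -0.095 without male 1 and -0.071 without female 2 and male 1. Wwtr1, which encodes TAZ, was at 111, 102 and 116 CPM in female libraries and 127, 119 and 120.0 CPM in male libraries. It had the same order of the sexes, with a log2 fold change of -0.15 (SE 0.07, 95% interval -0.32 to 0.02, edgeR adjusted p 0.394), and -0.08 without female 2 and male 1. Wwtr1 had the highest mean level per transcript length of the 10 genes, 51.3 ± 4.19 TPM (SD, n = 6), with Yap1 at 38.1 to 44.7 TPM. It exceeded Yap1 in each library, with a ratio of TPM levels of 1.25 ± 0.06 in females and 1.25 ± 0.05 in males (SD, n = 3). The balance of the 2 coactivator transcripts between the sexes differed by less than the spread between libraries.

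Yap1 RNA was divided almost evenly between its 2 main transcripts. Yap1-201, which holds the 48-base exon printed above, took 44.6% to 47.7% of Yap1 TPM in females and 45.6% to 51.1% in males. Yap1-202, without it, took 48.8% to 52.5% in females and 45.6% to 51.8% in males. The ranges of the sexes overlapped for both. Wwtr1 was assigned almost wholly to Wwtr1-201, at 97.5% to 98.2%.

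Tead1 was the main TEAD of the nerve. It was at 193, 178 and 211 CPM in female libraries 1 to 3 and 228, 196 and 212 CPM in male libraries 1 to 3, and the groups overlapped (log2 fold change -0.13, SE 0.09, 95% interval -0.34 to 0.09, and -0.011 without female 2 and male 1). Leaving out 1 library gave -0.073 without female 2, -0.19 without female 3 and -0.065 without male 1 for Tead1. Tead3 was at 28.7, 24.4 and 31.9 CPM in female libraries and 40.7, 31.3 and 33.4 CPM in male libraries. Female 3 lay above male 2, and male 1 was the highest. Its log2 fold change was -0.31 (SE 0.13, 95% interval -0.61 to -0.01, edgeR unadjusted p 0.0441 and adjusted p 0.329). It was -0.22 without female 2, -0.19 without male 1 and -0.10 without both, the libraries that held muscle RNA. The part of muscle RNA in it was not tested.

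Tead2 and Tead4 were the scarce members of the family. Tead2 was at 12.1, 10.3 and 10.5 CPM in female libraries and 10.5, 10.1 and 10.1 CPM in male libraries. It was the only TEAD with a log2 fold change above 0, at 0.10 (SE 0.10), and the groups overlapped. That value was 0.021 without female 1 and 0.16 without female 2 and male 1. Tead4 was at 11.6, 14.5 and 13.2 CPM in female libraries and 15.2, 14.0 and 14.0 CPM in male libraries. Its log2 fold change was -0.14 (SE 0.10) and its groups overlapped too, with -0.059 without female 1 and -0.22 without female 2.

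Compared per transcript length, Tead1 made up 53.6% to 58.2% of the summed TEAD TPM in the 6 libraries, Tead3 20.4% to 26.7%, Tead2 8.72% to 12.9% and Tead4 9.32% to 11.8%. The summed TEAD level was 71.1 ± 5.80 TPM in females and 77.7 ± 3.96 TPM in males (SD, n = 3). The share of Tead3 was 21.9% ± 1.29 in females and 24.5% ± 1.91 in males, with all 3 male libraries above the female ones. That of Tead2 was 11.7% ± 1.30 and 9.59% ± 0.823, and its libraries overlapped. These shares were not tested. With all transcripts of a gene summed, the order Tead1, Tead3 and then the other 2 held in all 6 libraries. These sums include transcripts annotated as retaining an intron, which took 38.7% to 43.8% of Tead3 TPM and 0.986% to 16.4% of Tead2 TPM. The main coding transcripts alone were closer: Tead3-206 was at 7.49 to 11.1 TPM and Tead2-201 at 5.47 to 7.19 TPM over the 6 libraries. Tead2 and Tead4 did not differ from each other beyond their spread, at 7.85 ± 0.623 and 7.56 ± 0.552 TPM (SD, n = 6), and Tead2 was the higher in 3 of 6 libraries.

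Over all 10 genes, mean TPM over the 6 libraries ran from Wwtr1 through Tead1 (41.7), Yap1, Amotl2 (37.5), Lats2 (29.2), Lats1 (22.2), Tead3 (17.3), Tead2 (7.85) and Tead4 (7.56) to Ankrd1, which was at 23.7 TPM in female 2 and 0.93 to 1.71 TPM elsewhere. Tead1 and Yap1 did not differ beyond their spread: Tead1 was above Yap1 in 2 of 6 libraries. Wwtr1 was above Tead1, Yap1 above Amotl2 and Amotl2 above Lats2 in each of the 6, although the ranges of these neighbours overlapped. Ranges did not overlap between Lats2 and Lats1 or between Tead3 and Tead2, with all transcripts summed, those annotated as retaining an intron among them.

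Transcripts annotated as retaining an intron took a large share of Tead3 and a small one of Yap1. For Tead3 they summed to 41.02%, 39.4% and 43.6% of the gene's TPM in females 1 to 3 and to 43.8%, 38.7% and 41.2% in males 1 to 3. The coding transcript Tead3-206 took 50.1% to 57.4%. The retained-intron share of Yap1 was at most 0.460% in any library, that of Tead1 at most 5.68%, that of Amotl2 at most 12.1%, that of Ankrd1 at most 13.8% and that of Tead2 at most 16.4%. The sexes overlapped for Tead3. The main Tead1 transcript was Tead1-202, at 60.3% to 63.9%, and Tead4-201 took 66.0% to 72.1% of Tead4. Shares of transcripts rest on Salmon's division of reads among overlapping transcripts, and the error of that division is not given in the files.

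**Figure D2:**
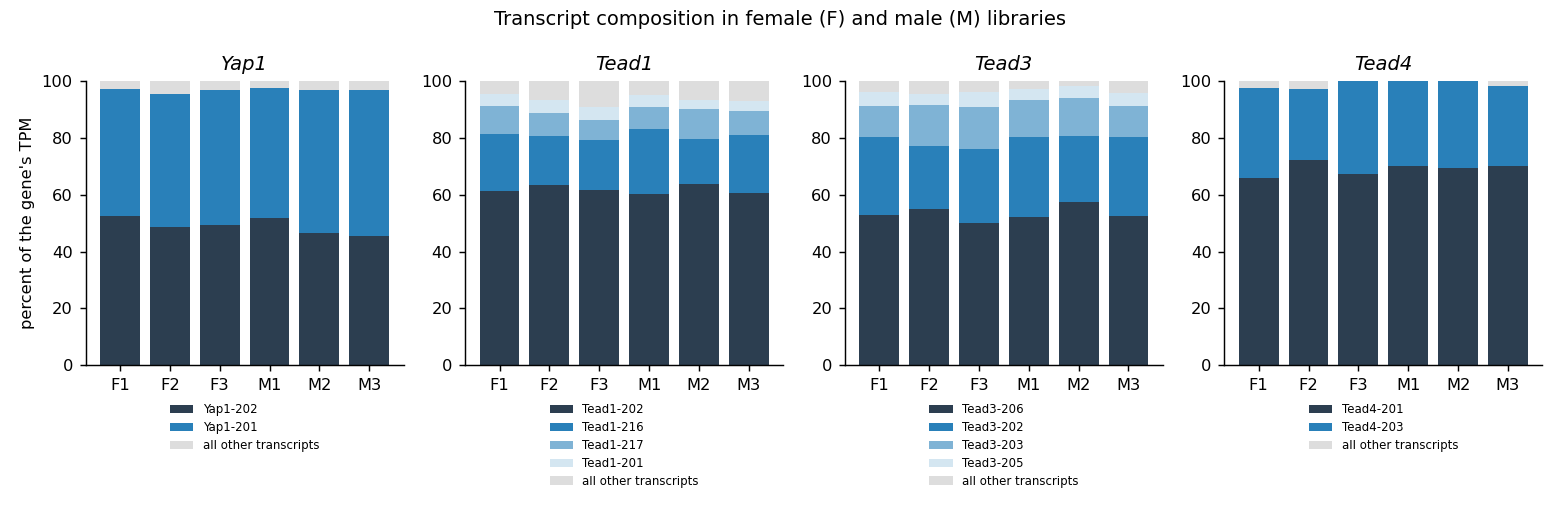
Share of each gene's TPM, in percent, by transcript in the 6 libraries for Yap1, Tead1, Tead3 and Tead4; stacked colours are transcripts with a mean share of at least 4% and grey is the rest. Yap1 is divided almost evenly between 2 coding transcripts, and Tead3-202 and Tead3-203, both annotated as retaining an intron, form a large part of Tead3 in every library.

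Among the targets, Amotl2, an angiomotin-like protein that YAP and TAZ induce and that holds them at cell junctions, had the smallest p of the 10 genes. It was at 77.3, 65.5 and 84.3 CPM in female libraries 1 to 3 and 95.5, 89.2 and 94.7 CPM in male libraries 1 to 3. Every male library was above every female one. The log2 fold change was -0.30 (SE 0.10, 95% interval -0.52 to -0.07), with an unadjusted p of 0.0158 and an adjusted p of 0.235 in edgeR's test, and -0.19 without female 2 and male 1. Over all settings tried, the adjusted p of Amotl2 ran from 0.112 to 0.460.

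**Figure D3:**
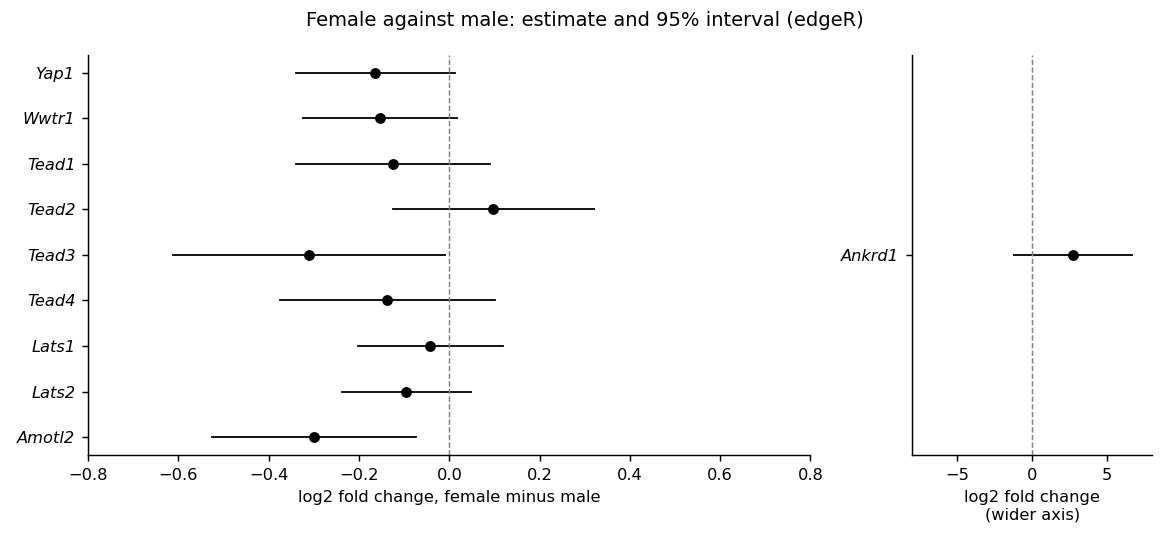
Log2 fold change, female minus male, of the 10 genes in edgeR's quasi-likelihood test, with bars for the 95% interval; Ankrd1 is drawn on a wider axis. Intervals of Amotl2 and Tead3 lie below 0 before adjustment, and the others include 0.

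Ankrd1, an ankyrin repeat protein of the nucleus and of the muscle sarcomere, was low in 5 libraries and high in 1. It was at 1.68, 31.0 and 1.23 CPM in female libraries 1 to 3 and 2.38, 1.51 and 1.27 CPM in male libraries 1 to 3. Its log2 fold change of 2.70 (SE 1.49, edgeR adjusted p 0.494) rests on female 2: it was -0.25 without that library and 0.07 without female 2 and male 1. The level in female 2 was 13.0 times that of male 1, while the sum of the 8 muscle markers in female 2 was 1.88 times that in male 1. These are ratios of 2 single libraries, and the part of muscle RNA in the Ankrd1 value of female 2 was not tested.

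Other muscle genes, chosen after their values were seen, are set beside it. Genes of the muscle fibre itself were high in both libraries. Acta1, skeletal actin, was at 327 CPM in female 2 and 127 CPM in male 1, Ckm, muscle creatine kinase, at 198 and 117 CPM, and Myh4, a fast myosin, at 571 and 333 CPM, all with at most 5.78 CPM elsewhere. Xirp1, an actin-binding protein of muscle, was at 25.4 CPM in female 2 and 0.652 CPM in male 1, with 0.215 to 0.787 CPM elsewhere. Ankrd2, a relative of Ankrd1, was at 3.27 CPM in female 2 and 0.0799 CPM in male 1, with 0.0262 to 0.0407 CPM elsewhere, and Csrp3, a muscle LIM protein, stood at 185 reads in female 2 and at 0 to 3 reads in every other library. Like Ankrd1, these 3 were high in female 2 alone. Ankrd23, another relative of Ankrd1, followed the fibre genes instead, at 51.7 CPM in female 2, 23.0 CPM in male 1 and 6.29 to 7.96 CPM elsewhere. Myog, a myogenic transcription factor, lay between, with 265 reads in female 2, 66 in male 1 and 0 in the other 4 libraries, where a count of 0 allows up to 3 reads.

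**Figure D4:**
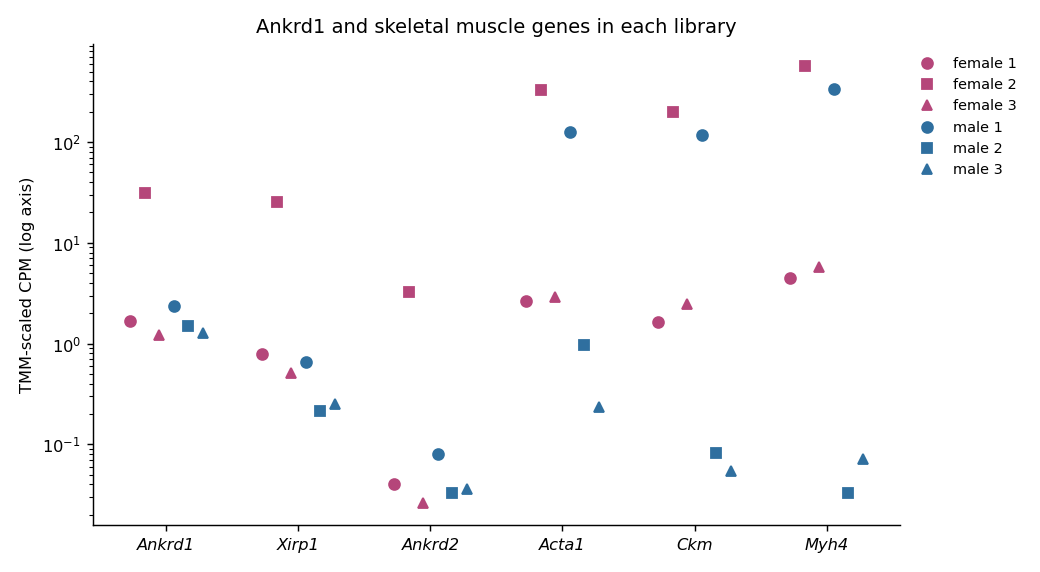
TMM-scaled CPM (log axis) of Ankrd1 and 5 skeletal muscle genes in each of the 6 libraries. Acta1, Ckm and Myh4 are high in female 2 and male 1, while Ankrd1, Xirp1 and Ankrd2 are high in female 2 alone.

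Ccn1 and Ccn2, which encode secreted matrix proteins and are the usual readouts of YAP and TAZ, had different patterns over the libraries. Ccn1 was at 110.2, 94.1 and 87.3 CPM in female libraries 1 to 3 and 156, 102 and 129.6 CPM in male libraries 1 to 3. Male 2 lay below female 1, and the log2 fold change was -0.41 (SE 0.16, 95% interval -0.79 to -0.03, edgeR adjusted p 0.314), and -0.23 without female 2 and male 1. Ccn2 was at 112, 112 and 56.8 CPM in female libraries and 111, 82.1 and 65.7 CPM in male libraries. Its libraries were spread widely within each sex with no order of the sexes (log2 fold change 0.12, SE 0.31, and 0.19 without female 2 and male 1).

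In a list of 19 YAP and TAZ targets besides the 10 genes, with Ccn1 and Ccn2 among them, all 19 were tested and 0 passed in edgeR's test, with 5 at an unadjusted p under 0.05, 1 higher in females and 4 higher in males. Over all tested genes, 0.11% passed and 14.6% had an unadjusted p under 0.05. Of the 19, 12 were below 0, beside 46.4% of all tested genes, and the median was -0.15. Igfbp3, which encodes a carrier of insulin-like growth factors, was the gene of smallest p. It was at 56.1, 77.4 and 60.1 CPM in female libraries 1 to 3 and 39.5, 35.3 and 35.0 CPM in male libraries 1 to 3, against the direction of most of the list. All female libraries were above all male ones, with a log2 fold change of 0.82 (SE 0.12) and an edgeR adjusted p of 0.0845. It passed with DESeq2 (adjusted p 5.01e-06), with edgeR and no filter on low counts (0.0099) and with edgeR without female 2 and male 1 (0.0394), and its adjusted p ran from 0.0518 to 0.30 in the remaining settings. Nt5e, the ecto-enzyme CD73, had -0.54 (SE 0.14) and DESeq2 called it too (adjusted p 0.0145). Arhgef17, a guanine nucleotide exchange factor, had -0.34 (SE 0.11) and F3, tissue factor, -0.27 (SE 0.10, and -0.11 without female 2 and male 1). Every male library was above every female one for these 3, and none of them passed in edgeR's test.

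Among 22 other genes of the pathway, 20 were tested and 0 passed in edgeR's test, with 4 at an unadjusted p under 0.05, a share near the 14.6% of all tested genes. The log2 fold change was above 0 for 12 and below 0 for 8, with a median of 0.01. The core kinase Stk3 was at 41.9 ± 2.68 CPM in the female group and 41.7 ± 0.768 CPM in the male group, and Nf2, the upstream tumour suppressor merlin, at 100.5 ± 1.97 and 103 ± 4.61 CPM (SD, n = 3). Those of smallest p were Vgll4, a TEAD cofactor that competes with YAP (-0.22, SE 0.07), Mob1b, an adaptor of the LATS kinases (0.25, SE 0.09), Wwc2, a scaffold of the KIBRA family (-0.18, SE 0.07, and -0.10 without female 2 and male 1), and Frmd6, a FERM domain protein (-0.21, SE 0.09). Their adjusted p ran from 0.209 to 0.343 in edgeR's test. Vgll1 had no reads in any library, and Vgll2 had at most 0.291 CPM, in female 2, so neither was tested. Vgll3, at 51.4 to 68.7 CPM, and Vgll4 were detected in every library.

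Genes that earlier work ties to YAP, TAZ and TEAD1 in Schwann cells had higher mean levels in male nerves. The 6 log2 fold changes were negative (median -0.37) and each had an unadjusted p under 0.05 (14.6% of all tested genes), but 0 of 6 passed in edgeR's test after adjustment (0.11%). Itga6, a laminin receptor subunit, was at 421, 395 and 482 CPM in female libraries 1 to 3 and 600.4, 528 and 554 CPM in male libraries 1 to 3 (-0.37, SE 0.10, adjusted p 0.181). Dag1, dystroglycan, had -0.36 (SE 0.10). Pmp22, a protein of compact myelin, had -0.78 (SE 0.21). DESeq2 called 4 of the 6, with Itga6, Dag1 and Pmp22 among them, and 4.55% of all tested genes. Without female 2 and male 1 the values were -0.26 for Itga6, -0.27 for Dag1 and -0.44 for Pmp22.

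**Figure D5:**
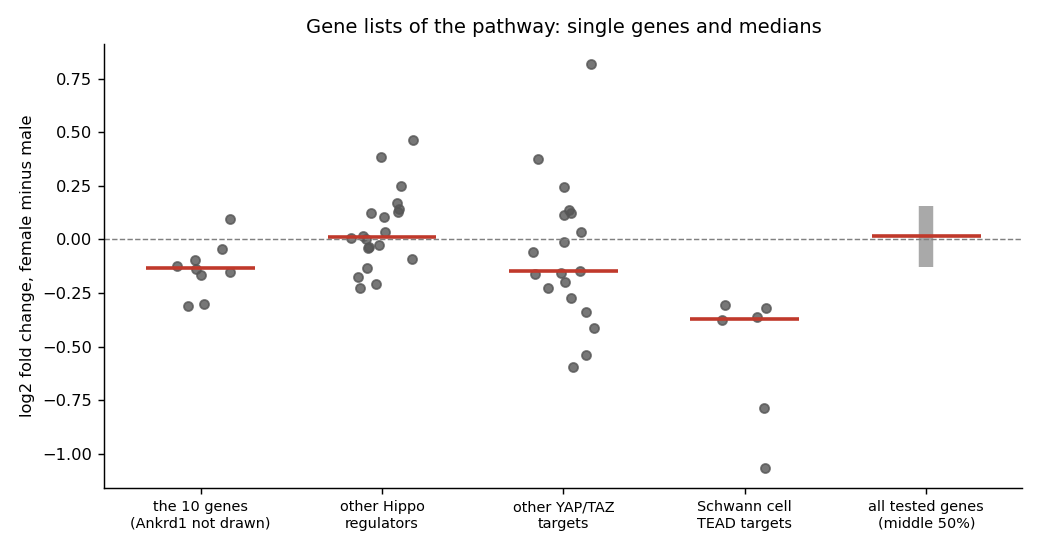
Log2 fold change, female minus male, of single genes (points) in the 4 lists, with the list median as a bar; the last column gives the median and the middle 50% of all 19129 tested genes, and Ankrd1 (2.70) is outside the axis. The medians are -0.13 for the 10 genes, 0.01 for the other regulators, -0.15 for the other targets and -0.37 for the Schwann cell genes.

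Summed levels of markers of the nerve's cell types differed between these libraries. No tested marker passed in edgeR's test after adjustment, where 0.11% of all tested genes did. The counts of markers below 0 stand beside 46.4% of all tested genes. The summed level of 8 Schwann cell markers was 1140 to 1577 CPM in females and 1601 to 2121 CPM in males, with all 8 log2 fold changes below 0. For 8 myelin genes, Pmp22 among them, it was 11639 to 18302 CPM and 23812 to 32520 CPM (8 of 8 below 0). It was 5254 to 6154 CPM and 7569 to 9452 CPM for 8 fibroblast markers (7 of 8 below 0), and 762 to 947 CPM and 973 to 1080 CPM for 8 perineurial markers, Itgb4 among them (8 of 8 below 0). The sums of these 4 lists did not overlap between the sexes, with males higher, an order that 11.5% of all tested genes had singly. For Schwann cell, myelin and perineurial markers female 2 was the lowest library and male 1 the highest. Schwann cell sums in the other libraries were 1313 and 1577 CPM in females and 1653 and 1601 CPM in males. Sums of 8 endothelial markers overlapped (362 to 523 and 420 to 469 CPM, 2 of 8 below 0). So did those of 8 mural cell markers (599 to 652 and 647 to 693 CPM, 4 of 8 below 0). Macrophage markers (1363 to 1949 and 999 to 1640 CPM) and neutrophil markers (917 to 1660 and 645 to 1290 CPM) had 0 of 6 below 0 each, as had 6 adipocyte markers (361 to 1129 and 452 to 728 CPM), highest in female 2, and none of the 7 tested muscle markers was below 0. T and NK cell markers were scarce (4.89 to 6.69 and 8.87 to 13.9 CPM, 6 of 6 below 0), and their sums did not overlap either. Every listed marker had reads in every library, and the part of these markers in the values of Yap1, Wwtr1, Amotl2 and the Schwann cell genes was not tested. In these bulk libraries fewer cells of a type and less RNA per cell cannot be told apart.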

How the data were processed

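Trimmomatic 0.39, Salmon 1.5.2 and MultiQC 1.9 are named in the submitters' processing notes. Each deposited table holds 1 library and, per the file headers, gives for each of 140789 transcripts an estimated count of reads, not normalized by the authors, and a TPM value that the authors' Salmon run scaled by effective length. The genome build, annotation release and strand setting were not given in the sources used here. Reads shared by similar transcripts are divided by an estimate.

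Estimated counts and TPM were summed over each gene's transcripts, and the sums of counts were rounded. Genes with low counts were removed with edgeR 4.0.16's filterByExpr, libraries were scaled by TMM, and the sexes were compared by the robust quasi-likelihood test with no covariate, adjusted over 19129 genes. SE and 95% intervals come from that test. Levels are TMM-scaled CPM, and TPM where genes are compared with each other. limma 3.58.1 and DESeq2 1.42.0 gave alternatives, as did other scalings, filters, a length offset, pseudocounts of 1 and 0.1 on TPM, a replicate block and left-out libraries. On simulated data of 19129 genes with 200 changed, the edgeR test found 61.2% of those with a log2 change of 1 and 8.96% of those with 0.5, with 10 false calls. No 2 libraries agreed within sampling noise (chi-square at least 26.3 per degree of freedom). Floors and counts cover counting error only.

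The genes, the lists and the libraries doubted were chosen with earlier results of these data known. Besides the 10 genes, the text names Ccn1, Ccn2 and the 4 genes of smallest p in each list, of which 1 is not reported here; others were chosen after their values were seen.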

Additional observations from a re-analysis of the deposited data

How the results depend on the processing

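The count of 0 of 10 genes called held in all 17 alternatives, as did 0 of the other pathway genes. Directions held for 8 of the 10: with 1 library left out, Lats1 ran from -0.071 to 0.0097 (the latter without male 3) and Ankrd1 from -0.25 (without female 2) to 3.23. Ccn2 ran from -0.047 (without male 3) to 0.37, and was -0.036 without female 1 and -0.036 without female 2. The number of all genes called, 21 in the main test, was 191 with no filter on low counts, 3 with the replicate block, 871 with DESeq2, 10 with limma on log2(TPM + 1) and 4 to 205 with 1 library left out (205 without female 3, 4 without male 2). Of the other YAP and TAZ targets, 1 was called with no filter, 2 with DESeq2 and 1 without female 2 and male 1; of the Schwann cell genes, 4 with DESeq2 and 0 to 1 with 1 library left out. The median of the other targets, -0.15, was -0.10 at a mean CPM of at least 1, -0.061 on log2(TPM + 1), -0.073 without female 2 and male 1, and -0.14 to -0.081 with 1 library left out. The causes were not tested. Replicate numbers did not pair the libraries: deviations from the group means of same-numbered libraries correlated at -0.10, -0.19 and 0.01, and the replicate block changed no call of a named gene. The simulated recovery of small changes limits what can be said of differences of the size seen for Yap1 and Wwtr1.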
